A study of Mus musculus with 12 samples.

Results

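Macrophages without the kinase IRAK2 switched on a broad inflammatory programme within 2 h of the lipopeptide MALP-2, and the comparison described here asks what became of it by 8 h. It sets the IRAK2 KO array at 8 h against the IRAK2 KO array at 2 h, 2 of the 12 arrays of the series, over all genes. The cells were peritoneal macrophages of thioglycollate-injected IRAK2 KO mice, and MALP-2, which TLR2 senses together with TLR6, was given at 100 ng/ml. The IRAK2 KO arrays at 0 h (no MALP-2) and at 4 h place the comparison in time, and wild-type and IRAK1/IRAK2 KO macrophages, prepared and stimulated in the same way for 0, 2, 4 and 8 h, are set beside it. Strain, age, the number of mice behind an array and the structure of the disrupted alleles are not given in the sources used here.

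TLR2 signals through the adaptor MyD88 and the kinase IRAK4 to the related kinases IRAK1 and IRAK2, and from there through TRAF6 to the transcription factor NF-kB and the MAP kinases. Many of the messengers induced this way carry AU-rich elements and are short-lived, and the proteins that bind or cut them, such as tristetraprolin (Zfp36) and Regnase-1 (Zc3h12a), are themselves induced. A messenger level on an array therefore holds both synthesis and degradation. No transcription inhibitor is named in the labels, and the 2 processes cannot be told apart here. Nor can fewer cells of a type and less RNA per cell.

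Values are log2 levels made with RMA, read for each of 18194 genes from its brightest probeset, and every difference is 8 h minus 2 h unless stated otherwise. A gene counted as measured when the higher of its 2 values reached 3.83, the median of all values on the 11 arrays other than IRAK1/IRAK2 KO 0 h, which held for 11431 genes. Each group is 1 array, so no difference of 2 arrays has a replicate check, and a difference of at least 1 log2 unit, which is 2-fold, is described by its size alone. As a second view, limma fitted a straight line on log2 time to the 9 stimulated arrays with a slope for each genotype. Its residual is the departure from the line (3 degrees of freedom) and not the spread between mice, and only genes it called at an adjusted p under 0.05 are said to have risen or fallen. The 4 IRAK2 KO arrays had medians of 3.82 to 3.84 and control spikes of 10.22 to 10.46, and the 5' minus 3' difference of actin was -3.72 at 8 h and -3.49 at 2 h. All 10 macrophage markers were at or above the floor at both times and none differed 2-fold, while 0 of 4 erythroid and 1 of 8 T and NK cell markers reached the floor at 8 h, and 1 eosinophil and mast cell marker was 2-fold lower (-1.11). Some markers of other types reached the floor at 8 h: 8 of 12 mesothelial and stromal, 4 of 9 neutrophil, 4 of 7 B cell and 2 of 7 dendritic cell markers. Their list medians at 8 h were 4.51, 3.77, 4.21 and 3.35, beside the floor of 3.83. Single genes were far higher, such as Col1a1 at 10.75, S100a8 at 10.84 and Cd22 at 9.15. Others of the same lists were near the floor, such as S100a9 at 3.94 and Ms4a1 at 4.21. No marker of these types differed 2-fold between 8 h and 2 h, with a range of -0.69 to 0.45. The Irak2 probeset read 5.63, 5.51, 4.71 and 4.65 at 0, 2, 4 and 8 h in IRAK2 KO, against 6.21, 6.69, 6.29 and 5.77 in wild type, and whether its probes lie in the deleted part is not given. Irak1 read 8.51, 8.39, 8.31 and 8.52 in IRAK2 KO.

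At 8 h, 346 genes were at least 2-fold lower than at 2 h in IRAK2 KO, which is 3.03% of those measured, and 379 genes were at least 2-fold higher (3.32%). The difference was under 0.5 log2 for 8562 genes and at least 4-fold for 88. Near the threshold, 162 genes lay between 1 and 1.1 and 196 between 0.9 and 1. The 4 h array was not used to pick these genes. Its value lay between the 2 h and the 8 h value for 306 of the 346 lower and 353 of the 379 higher genes. These are 88.4% and 93.1%, against 48.1% of all measured genes. A wide gap between 2 h and 8 h leaves more room for a value in between. The shares are therefore a description and not a check. In the limma fit 124 of 10854 genes fell with time in IRAK2 KO (1.14%) and 112 rose (1.03%), with 2067 genes at an unadjusted p under 0.05, while in wild type 125 fell (1.15%) and 197 rose (1.81%). All 124 and all 112 were among the genes at least 2-fold apart. The lower of the 2 values was under the floor for 22 of the 346 and 23 of the 379, and their differences are lower limits.

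Most of what was lower at 8 h had been induced at 2 h. Relative to the IRAK2 KO array at 0 h, 532 genes were at least 2-fold higher at 2 h (4.65% of 11436 genes measured on those arrays) and 615 were at least 2-fold lower (5.38%). They are called early-induced and early-repressed here. Of the 532 early-induced genes, 208 were at least 2-fold lower at 8 h than at 2 h, 311 differed less and 13 were higher still. Of the 615 early-repressed genes, 198 were at least 2-fold higher at 8 h, 410 differed less and 7 were lower still. Another 131 genes were lower and 168 higher without an early change. The early change and the later difference share the 2 h array, so an unusual value there would enter both, and these counts are a description.

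**Figure D1:**
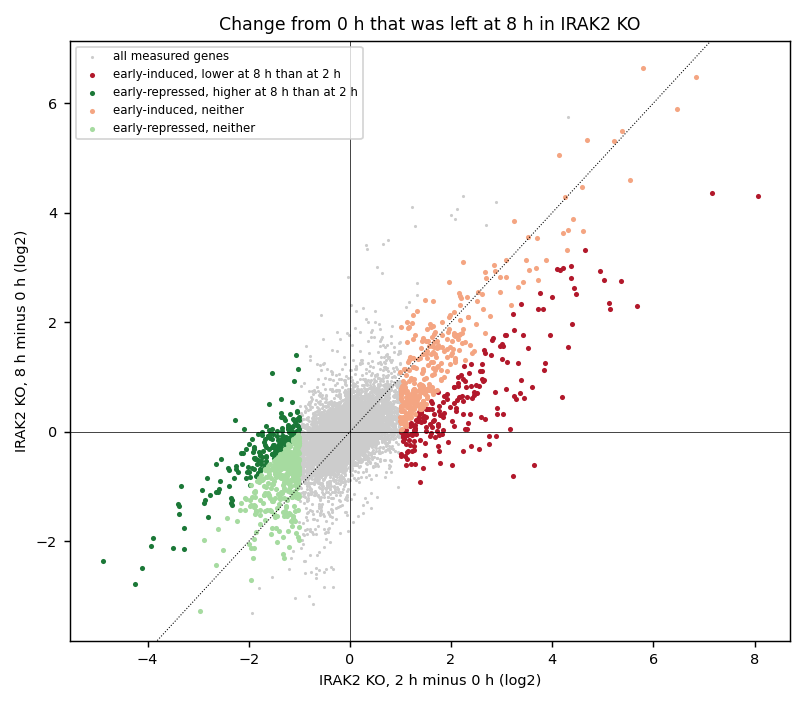
Each point is a gene measured in IRAK2 KO macrophages; the horizontal axis is the level at 2 h minus 0 h and the vertical axis the level at 8 h minus 0 h, both in log2 units, with 1 array per time. Points on the dotted line kept their 2 h level to 8 h; the 208 early-induced genes in dark red lie below it, toward or under 0, and the 198 early-repressed genes in dark green lie above it.

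Return to the starting level was common but not complete. In the 208 early-induced genes that were lower at 8 h, the median early change was 2.06 log2 and a median of 18.8% of it was left at 8 h. The 8 h level was within 0.5 log2 of the 0 h level for 107 of them and still at least 2-fold above it for 51. It was below the 0 h level, by any amount, for 50. These counts do not divide the 208, since some genes, such as Cdk5r1 (8 h minus 0 h of -0.08), are in both the 107 and the 50. Others, such as Rel (0.65), are in none. For the 198 early-repressed genes that were higher at 8 h, a median of 17.6% of the early change was left, 136 were within 0.5 log2 of their 0 h level, and 23 were still at least 2-fold below it.

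Tslp and Cd83 had the largest decreases of all measured genes. Cd83, a surface protein of activated antigen-presenting cells, read 8.85, 12.08, 10.19 and 8.05 at 0, 2, 4 and 8 h in IRAK2 KO, and 8.75, 12.22, 10.74 and 8.86 in wild type. It was 16.3-fold lower at 8 h than at 2 h in IRAK2 KO, under its starting level, and fell in the limma fit, with a slope of -2.01 log2 units for each doubling of the hours (SE 0.12, adjusted p 0.00334). Tslp, a cytokine that acts on dendritic cells and lymphocytes, read 3.70, 7.34, 5.17 and 3.09 in IRAK2 KO and 3.29, 7.94, 6.32 and 3.50 in wild type. Its 8 h values lay under the floor in both genotypes, so the 19.0-fold difference in IRAK2 KO is a lower limit. Nr4a3, an orphan nuclear receptor of the immediate-early class, read 3.89, 8.09, 5.23 and 4.53 in IRAK2 KO and 3.88, 8.73, 6.58 and 5.35 in wild type, while its 2 other probesets stayed at or under 3.59 on the stimulated IRAK2 KO arrays. All 3 were over 2-fold lower at 8 h than at 2 h in both genotypes, and at 4 h the wild-type levels of Tslp and Nr4a3 were more than 1 log2 unit above those of IRAK2 KO.

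Several other transcripts were at least 2-fold lower in both genotypes. Noct, nocturnin, whose level follows the circadian clock in many tissues, was lower at 8 h by -2.96 in IRAK2 KO and by -3.09 in wild type. Cish, an inhibitor of cytokine receptor signalling, differed by -2.95 in IRAK2 KO and -2.60 in wild type. Cdk5r1, an activator of the kinase Cdk5, differed by -2.83 in IRAK2 KO and -3.07 in wild type. The cell cycle inhibitor gene Cdkn1a read 8.86, 11.10, 9.74 and 8.53 over time in IRAK2 KO and 8.84, 11.03, 9.96 and 8.84 in wild type, so that both genotypes were back at or near the 0 h level. Lif and Il12b, coding for a cytokine of the interleukin 6 family and for the p40 subunit of interleukins 12 and 23, differed by -3.11 and -2.79 in IRAK2 KO and by -2.31 and -2.49 in wild type.

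Il1b, Ptgs2 and Cxcl1 had decreases of the same size in IRAK2 KO but not in wild type. Il1b, which encodes interleukin 1 beta, read 4.16, 12.22, 11.11 and 8.46 over time in IRAK2 KO, against 3.90, 12.33, 12.33 and 12.29 in wild type. The 2 h values were within 0.11 log2 units of each other, and the 8 h level in IRAK2 KO was 13.6-fold below its own 2 h level with 53.4% of the log2 induction left. Ptgs2, the inducible cyclooxygenase of prostaglandin synthesis, read 4.83, 10.49, 9.57 and 7.11 in IRAK2 KO, against 5.42, 10.89, 10.77 and 10.63 in wild type. Cxcl1, whose product draws neutrophils through CXCR2, read 4.71, 11.87, 10.77 and 9.07 in IRAK2 KO, against 5.21, 12.36, 12.46 and 12.63 in wild type. All 3 fell in the limma fit in IRAK2 KO (adjusted p 0.0447 for Il1b, 0.0164 for Ptgs2 and 0.0164 for Cxcl1). The slope difference from wild type did not pass the threshold for any of them (adjusted p 1 for Il1b and Ptgs2 and 0.569 for Cxcl1), so limma did not show that these slopes differed between genotypes. In IRAK1/IRAK2 KO the same transcripts read 6.16, 6.95 and 8.63 at 2 h and were lower by -2.06, -1.23 and -3.28 at 8 h.

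**Figure D2:**
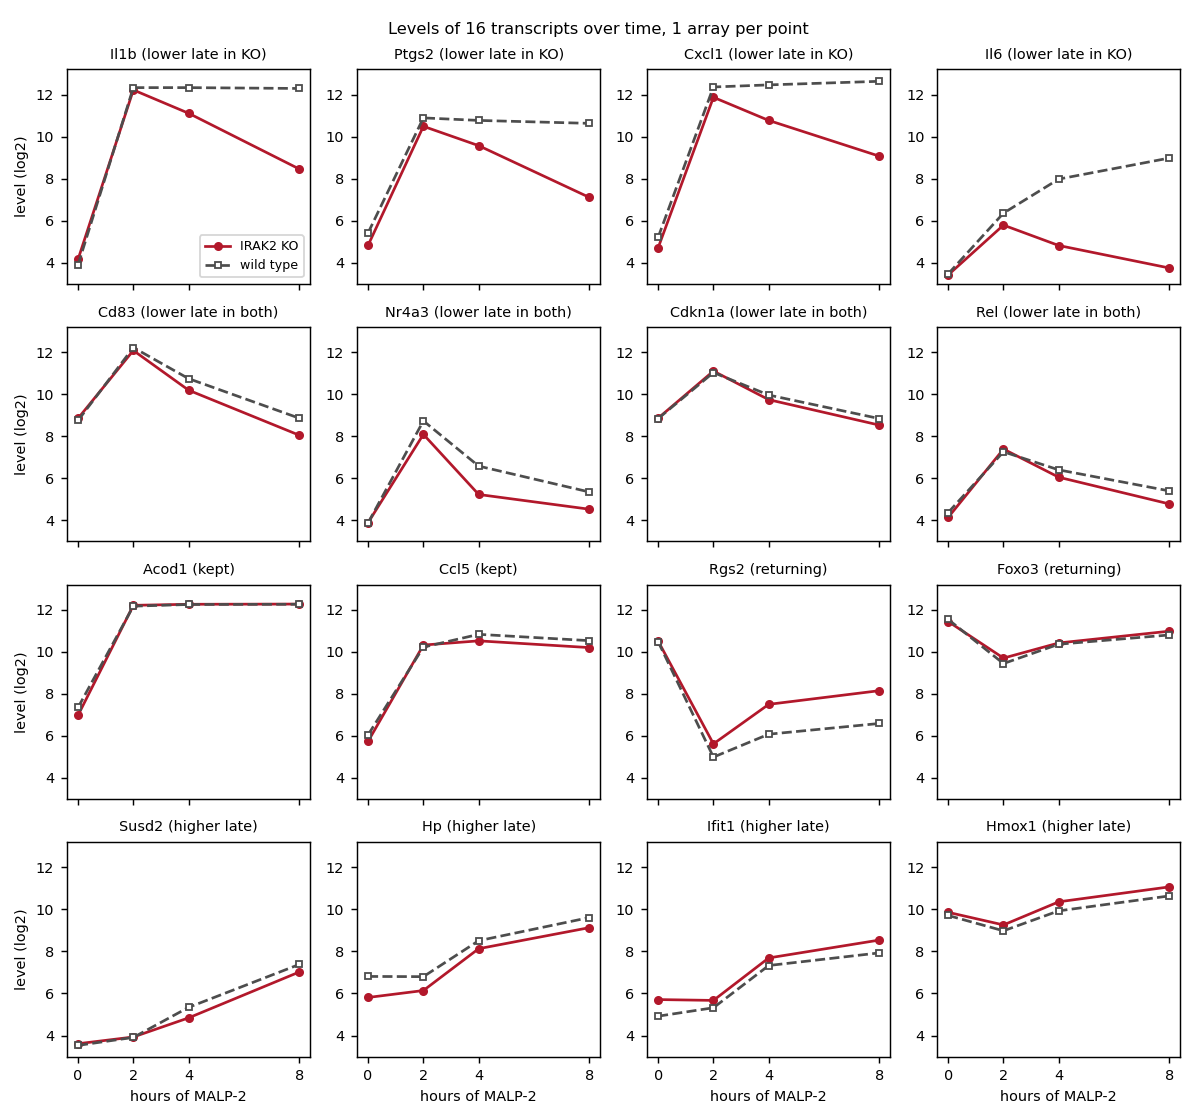
Levels (log2, vertical axis) of 16 transcripts at 0, 2, 4 and 8 h of MALP-2 (horizontal axis) in IRAK2 KO (filled red circles) and wild-type (open grey squares) macrophages, 1 array per point. Il1b, Ptgs2, Cxcl1 and Il6 part from wild type after 2 h, while the other 12 transcripts move in the same direction after 2 h in both genotypes or stay near their 2 h level, with the widest gap among them in Rgs2 at 8 h.

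Il6 was the 1 gene of 10854 whose slope differed between the genotypes in the limma fit (0.00921% lower in IRAK2 KO and 0.0% higher, with 292 genes at an unadjusted p under 0.05). In data simulated with known slope differences, the fit called 0 of 70 of size 0.5, 39 of 70 of size 1 and 57 of 60 of size 2. It also made 7 false calls. A gene that was not called can therefore still differ. Il6, the gene of interleukin 6, read 3.42, 5.79, 4.82 and 3.75 over time in IRAK2 KO, against 3.47, 6.36, 7.98 and 8.98 in wild type. It fell by 1.02 log2 units for each doubling of the hours in IRAK2 KO (SE 0.12, adjusted p 0.0164) and its slope was 1.31 in wild type, a difference of -2.33 (SE 0.17, adjusted p 0.0198). At 8 h 13.8% of the early change was left in IRAK2 KO. The IRAK2 KO values at 0 h and 8 h, 3.42 and 3.75, both lay under the floor. That share is therefore uncertain, the decrease from 2 h is a lower limit, and the IRAK2 KO slope rests partly on a value under the floor. Without the 3 IRAK1/IRAK2 KO arrays in the fit the difference was the same, -2.33, and its adjusted p was 0.156.

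The 208 early-induced genes that were lower at 8 h could be divided by what wild type did. In 114 of them wild type was also at least 2-fold lower at 8 h than at 2 h, in 60 its difference lay between -1 and -0.5, and in 34 it was above -0.5. For comparison, 2.77% of the genes measured in wild type were at least 2-fold lower at 8 h and 4.24% higher. Over 10830 genes measured in both genotypes, which share no array, the IRAK2 KO and wild-type differences had Pearson's r of 0.77 and Spearman's rho of 0.70, as a description across genes. With IRAK1/IRAK2 KO, where 1.77% of genes were lower and 3.22% higher, r was 0.52 and rho 0.42 over 11009 genes, and the stimulated IRAK1/IRAK2 KO arrays had lower 5' than 3' signal of Gapdh (-5.90 to -4.36, against -3.69 to -3.42 in stimulated IRAK2 KO), the part of which in this was not tested.

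**Figure D3:**
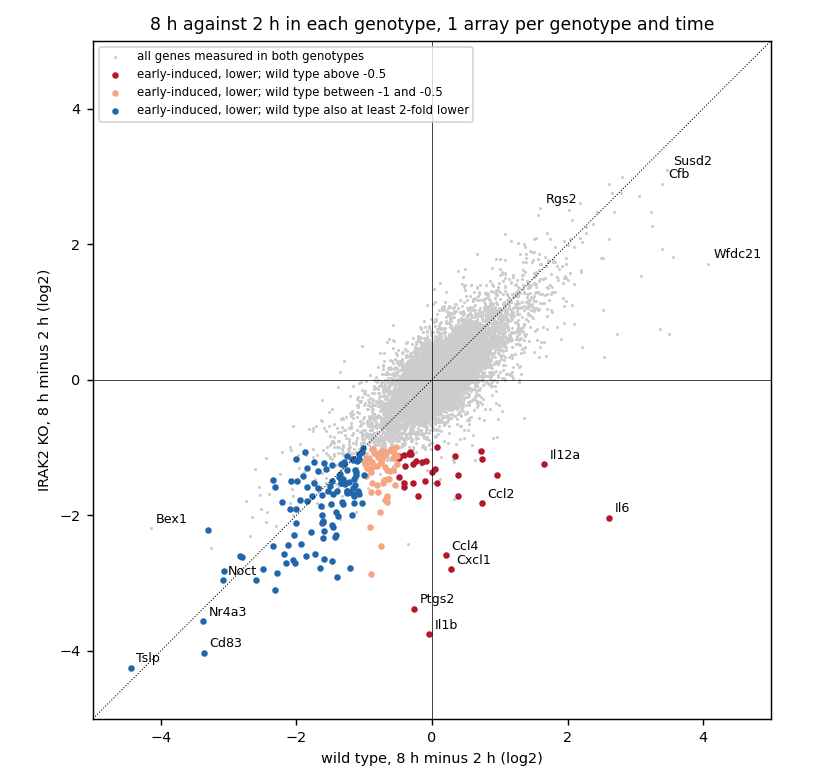
Each point is a gene measured in both genotypes; the vertical axis is IRAK2 KO 8 h minus 2 h and the horizontal axis wild type 8 h minus 2 h, in log2 units, with 1 array per genotype and time, and the dotted line marks equal differences. Blue points are the 114 early-induced genes lower in both, orange the 60 between, and dark red the 34 lower in IRAK2 KO with a wild-type difference above -0.5, among which Il6 lies farthest to the right.

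The 34 genes with a decrease in IRAK2 KO and less than 0.5 log2 of one in wild type hold the interleukin genes Il1b, Il6, Il1a and Il12a and the chemokine genes Cxcl1, Ccl4, Ccl2 and Ccl3. Ptgs2, Ptx3 (a soluble pattern-recognition protein), Serpinb2 (a protease inhibitor), Fst (follistatin, which binds activin) and the cytokine-signalling inhibitor Socs3 were also among them. The NF-kB pathway gave Nfkb2, Tnfaip3 (the ubiquitin-editing protein A20) and Tnip1 (its binding partner). The others were Rnd3, AI504432, Fnbp1l, Samsn1, Lcp2, Ddhd1, Phlda1, Gpr18, Exoc3l4, Eva1b, Itga5, 5830432E09Rik, Sh3bp4, U90926, Klf7, Lancl2, Rhbdf1 and Arap3. This group was defined by its wild-type difference, so the gap to wild type is part of its definition. Its median gap was -1.37. The gap was under 1 log2 for some members, such as Tnfaip3 (-1.16 in IRAK2 KO and -0.49 in wild type) and Tnip1 (-1.11 and -0.42). Some genes outside the group had a wider one, such as Cd69 (-2.91 in IRAK2 KO and -1.40 in wild type).

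Within the group, Ccl4, a chemokine gene of the MIP-1 type, read 5.16, 9.01, 8.61 and 6.42 over time in IRAK2 KO, against 9.10 at 2 h and 9.31 at 8 h in wild type. Ccl3, a chemokine gene of the same type, read 8.37, 12.47, 12.53 and 11.35 in IRAK2 KO, against 7.98, 12.46, 12.89 and 12.80 in wild type. Ccl2, which draws monocytes, returned to 5.69 at 8 h in IRAK2 KO, where 0 h had been 5.66, while wild type stood at 7.85. Il12a, the p35 subunit of interleukin 12, read 4.16, 6.30, 5.94 and 5.05 in IRAK2 KO, against 3.70, 6.63, 7.11 and 8.28 in wild type. Il6 and Il12a were the 2 of the 34 that were at least 2-fold higher at 8 h than at 2 h in wild type.

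A smaller share of the decrease was present at 4 h in these 34 genes than in the 114. The 4 h level had not been used to divide them. By 4 h a median of 37.1% of the IRAK2 KO difference between 2 h and 8 h was present in the 34 (quartiles 27.1% and 50.9%), 57.9% in the 60 between, and 64.7% in the 114 (quartiles 50.1% and 85.2%). The share at 4 h was at least 50% for 11 of the 34 and 85 of the 114. In wild type the median share for the 114 was also 64.7%. Median levels at 2 h were alike in the 34 and the 114, 8.16 and 8.26 in IRAK2 KO. The share and the division both use the IRAK2 KO arrays at 2 h and 8 h, and it is given as a description without a test. In the limma fit 15 of the 34 fell in IRAK2 KO, 18 of the 60 and 55 of the 114.

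**Figure D4:**
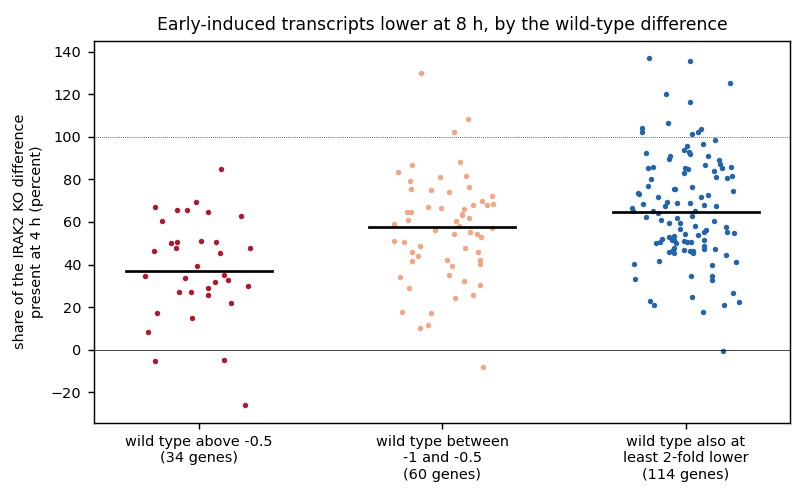
Each point is 1 of the 208 early-induced genes that were at least 2-fold lower at 8 h than at 2 h in IRAK2 KO; the vertical axis is the percentage of that log2 difference already present at 4 h and black bars are medians. The medians are 37.1% for the 34 genes with a wild-type difference above -0.5, 57.9% for the 60 between and 64.7% for the 114 also at least 2-fold lower in wild type; values above 100% mean that the lowest level came at 4 h.

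Promoters were searched for the kB motif, the letters that NF-kB binds, to set early-induced genes that were lower at 8 h beside those that were not. The sequences are RefSeq windows of 300 bases on GRCm38.p6, from 250 bases before to 50 after the gene start and on the plus strand, and capitals mark matches to the letters of a kB motif, GGANTTTCC or GGANTTCCC on either strand. Cxcl1 and Il6 were lower at 8 h in IRAK2 KO, while Cxcl3, a CXC chemokine gene on the same chromosome as Cxcl1, stayed within 0.5 log2 of its 2 h level. Cxcl3 differed by -0.37 in IRAK2 KO and by 0.68 in wild type, so it too was lower against wild type, by -1.05. Cxcl1 is at chr5:90890995-90891294, Cxcl3 at chr5:90785851-90786150 and Il6 at chr5:30012864-30013163.
Cxcl1: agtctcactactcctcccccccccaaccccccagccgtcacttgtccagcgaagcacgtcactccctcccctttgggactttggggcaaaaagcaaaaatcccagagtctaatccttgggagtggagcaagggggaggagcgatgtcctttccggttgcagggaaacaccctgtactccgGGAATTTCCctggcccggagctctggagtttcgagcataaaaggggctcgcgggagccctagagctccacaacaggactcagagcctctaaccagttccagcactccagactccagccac
Cxcl3: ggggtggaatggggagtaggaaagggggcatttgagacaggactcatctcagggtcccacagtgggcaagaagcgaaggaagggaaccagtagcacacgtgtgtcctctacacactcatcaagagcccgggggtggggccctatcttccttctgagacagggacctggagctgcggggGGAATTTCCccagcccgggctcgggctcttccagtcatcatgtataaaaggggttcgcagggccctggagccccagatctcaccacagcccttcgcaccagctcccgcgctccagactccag
Il6: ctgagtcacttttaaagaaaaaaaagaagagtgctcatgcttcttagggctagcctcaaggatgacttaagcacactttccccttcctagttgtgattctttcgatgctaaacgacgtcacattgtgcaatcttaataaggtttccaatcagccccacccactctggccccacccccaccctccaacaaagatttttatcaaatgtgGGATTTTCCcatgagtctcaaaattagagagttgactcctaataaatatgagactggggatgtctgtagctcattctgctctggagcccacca
Cxcl1 and Cxcl3 hold the same letters, GGAATTTCC, at nearly the same distance before the start, 70 and 72 bases, and Il6 holds GGATTTTCC 43 bases before it. The first listed window of each gene was searched. A kB match stood in 16 of 161 windows of early-induced genes that were lower at 8 h (9.94%) and in 18 of 262 windows of early-induced genes that were not (6.87%). It stood in 385 of 14453 windows of the genes read here (2.66%) and in 653 of 27025 windows of all genes (2.42%). Among the 26 of the 34 genes that had a window, 6 held such a match (23.1%): Cxcl1, Il6, Nfkb2, Ptx3, Tnfaip3 and Tnip1. Among the 114 genes also lower in wild type, 4 of 90 windows held one (4.44%). Other motifs, whose letters are given with the processing, also stood in the 26 windows. The TATA box was in 5 (19.2%), AP-1 in 4 (15.4%) and C/EBP in 4 (15.4%), against 9.87%, 6.33% and 9.04% of the genes read here. CRE was in 0, against 2.68%. The kB motif was thus not the only one with a higher share in these few windows. A match is a run of letters and not a shown binding site.

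Not all induced transcripts declined. Of the 532 early-induced genes, 134 were within 0.5 log2 of their 2 h level at 8 h, and a median of 90.9% of their early change was left. Cxcl3, whose product also acts through CXCR2, read 3.14, 9.98, 10.37 and 9.61 over time in IRAK2 KO, against 3.02, 10.14, 10.46 and 10.83 in wild type. Acod1, the enzyme that makes itaconate, read 6.98, 12.21, 12.26 and 12.27 in IRAK2 KO and 7.35, 12.17, 12.25 and 12.26 in wild type. Gpr84, a receptor for medium-chain fatty acids, read 4.40, 9.76, 10.41 and 9.89 in IRAK2 KO, against 4.80, 9.81, 10.61 and 10.66 in wild type. Ccl5, the chemokine RANTES, and Slc7a11, the cystine transporter, differed by -0.12 and 0.04 in IRAK2 KO and by 0.31 and 0.01 in wild type. The other 5 of the 10 most induced kept transcripts were AA467197, Lmo4, Malt1, Ppfia3 and Foxp4, with differences of -0.36 to 0.05 in IRAK2 KO. Lmo4, a LIM-only transcription cofactor, differed by 0.03 in IRAK2 KO and by 1.20 in wild type. Of the 134, 80 had their highest stimulated level at 4 h, as did 28.3% of all measured genes.

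Listed by role, the cytokine and chemokine genes leaned to lower levels at 8 h. Counts in this and all following lists are to be read beside the 3.03% lower and 3.32% higher of all measured genes. Many members were early-induced, 12 of the 19 measured cytokine genes and 11 of the 19 chemokine genes. Of all 532 early-induced genes, 208 were lower. Of 19 measured inflammatory cytokine genes 8 were at least 2-fold lower at 8 h and 0 higher, with a median of -0.95 in IRAK2 KO and -0.09 in wild type, against medians of 0.06 and 0.09 over all measured genes. Tnf, the gene of tumour necrosis factor, was at -0.95, with 10.08 at 8 h, against 11.02 at 2 h. The interleukin 1 receptor antagonist gene Il1rn, at 0.23, and Ebi3, a subunit of interleukins 27 and 35, at 0.48, were the 2 with a positive difference. Of 19 chemokine genes 5 were lower (Cxcl1, Ccl4, Ccl2, Ccl7 and Ccl3) and 0 higher, with a median of -0.45 in IRAK2 KO and 0.28 in wild type. In wild type 0 of these chemokine genes were 2-fold apart in either direction. Cxcl2 differed by -0.58 in IRAK2 KO, and Ccl9, Ccl6 and Cxcl13 by -0.02 to 0.18.

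NF-kB subunits and feedback inhibitors had the lowest list median, -1.14 in IRAK2 KO and -0.73 in wild type. Of the 18 measured, 10 were at least 2-fold lower, 0 were higher and none had a difference above 0. Of these 18, 15 were early-induced, a class in which 208 of 532 genes were lower. Rel, the c-Rel subunit, read 4.14, 7.39, 6.05 and 4.78 over time in IRAK2 KO, against 4.37, 7.26, 6.40 and 5.40 in wild type, and fell in the limma fit (slope -1.30, SE 0.10, adjusted p 0.00565). Nfkbiz, an atypical inhibitor that also activates secondary genes such as Il6, read 7.22, 11.69, 10.19 and 9.73 in IRAK2 KO, against 7.38, 11.85, 11.39 and 11.08 in wild type. Nfkbia, the classical inhibitor, differed by -0.35 in IRAK2 KO by its chosen probeset, while its 4 other probesets differed by -0.47, -0.57, -1.24 and -1.38, so the 2-fold call depends on the probeset.

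Messengers known to carry AU-rich elements, a list that shares many members with the cytokines and chemokines, had a median of -1.13 in IRAK2 KO and -0.21 in wild type. Of 22 measured, 12 were at least 2-fold lower and 1 was higher, and 14 of the 22 were early-induced. Their decay factors were lower too or little different. Of 23 measured decay factor genes 5 were lower and 0 higher, with a median of -0.14. Zc3h12a, the endonuclease Regnase-1, read 4.76, 8.71, 7.27 and 6.53 over time in IRAK2 KO, against 5.25, 8.89, 8.41 and 7.98 in wild type. Zfp36, tristetraprolin, read 7.16, 7.96, 7.48 and 6.53 in IRAK2 KO, against 7.37, 7.83, 7.70 and 7.20 in wild type. Both fell in the limma fit in IRAK2 KO (adjusted p 0.0147 for Zc3h12a and 0.0314 for Zfp36). The others at least 2-fold lower were Btg2, an activator of deadenylation, Zfp36l1, a relative of tristetraprolin, and Rc3h1, the protein Roquin.

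Immediate-early genes went both ways. Of 28 measured, 10 were at least 2-fold lower, from Nr4a3 at -3.56 to Junb at -1.10, and 3 were higher, with a median of -0.75 in IRAK2 KO and -0.35 in wild type. The 3 were Fos, Jun and Atf3, members of the AP-1 and ATF family. Fos read 8.62, 6.83, 8.47 and 8.25 over time in IRAK2 KO, against 8.41, 6.22, 7.66 and 7.22 in wild type, and Jun read 10.28, 8.51, 9.47 and 9.85 in IRAK2 KO, against 10.12, 8.20, 9.29 and 9.54 in wild type. The 2 h levels were the lowest in both genotypes. The 2 h array comes after the first hour, when Fos is usually induced, and that time was not measured. In the MAP kinase phosphatase, SOCS and Sprouty list 4 of 20 were lower and 1 was higher, Dusp6, the phosphatase of ERK, at 1.27 in IRAK2 KO and 1.70 in wild type.

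**Figure D5:**
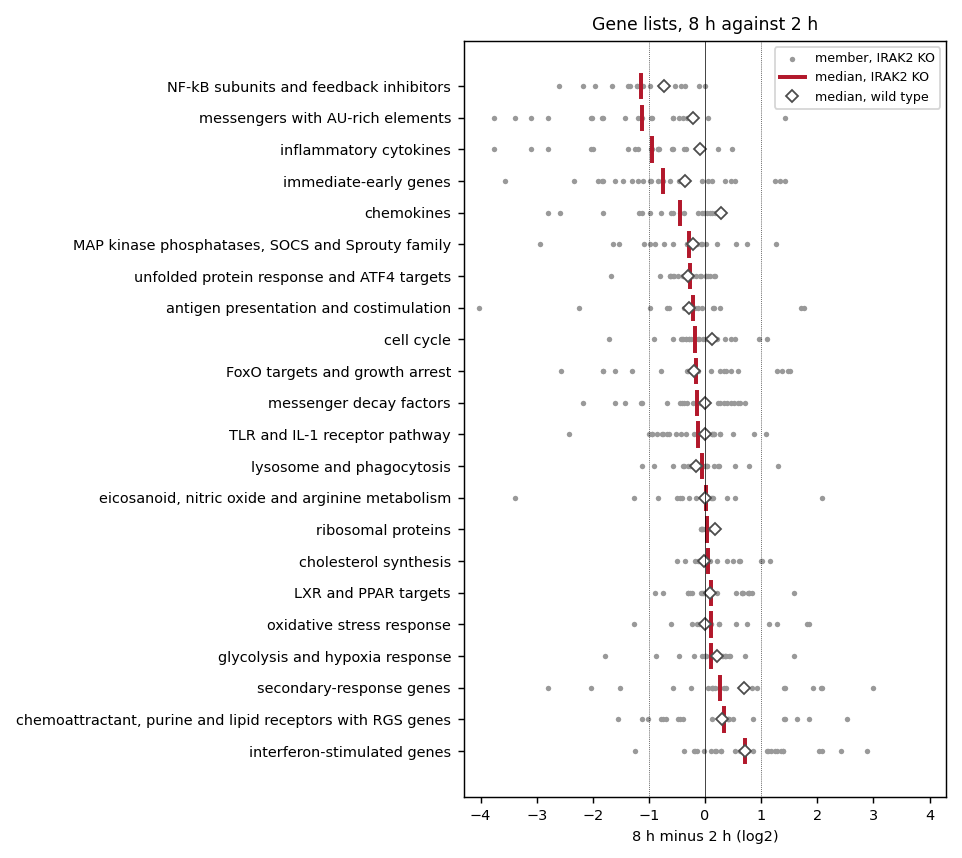
Differences between 8 h and 2 h (log2, horizontal axis) for the measured members of 22 gene lists (rows); grey dots are members in IRAK2 KO, red bars their medians and open diamonds the medians in wild type, 1 array per genotype and time. NF-kB genes, messengers with AU-rich elements and cytokines have the lowest IRAK2 KO medians (-1.14, -1.13 and -0.95), and interferon-stimulated genes the highest (0.72 in both genotypes).

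Transcripts that were higher at 8 h were largely the same as in wild type in direction. Of the 379, 244 were also at least 2-fold higher in wild type (64.4%, where 4.24% of measured genes were). The same sign was seen for 376 of them (99.2%), against 72.8% of all measured genes. Susd2, a surface protein with a sushi domain, read 3.61, 3.93, 4.84 and 7.02 over time in IRAK2 KO, against 3.53, 3.91, 5.34 and 7.38 in wild type, the largest increase in IRAK2 KO at 3.09. Hp, the haemoglobin-binding protein haptoglobin, read 5.81, 6.14, 8.13 and 9.13 in IRAK2 KO, against 6.81, 6.80, 8.51 and 9.61 in wild type. Cfb, complement factor B, read 3.69, 4.91, 6.26 and 7.80 in IRAK2 KO, against 3.87, 4.90, 6.29 and 8.30 in wild type. All 3 rose in the limma fit (adjusted p 0.0164 for Susd2, 0.0163 for Hp and 0.00565 for Cfb). Adgre4, an adhesion receptor of macrophages, Mfap3l and Clmp, a junction protein, were higher by 2.75, 2.71 and 2.76 in IRAK2 KO and by 2.65, 3.05 and 2.79 in wild type.

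The secondary-response genes, which need new protein synthesis or chromatin opening, split. Of 23 measured, 6 were at least 2-fold higher at 8 h and 3 were lower, with a median of 0.26 in IRAK2 KO and 0.70 in wild type. The 6 were Hp, Ptges (a prostaglandin E synthase), Slpi (a protease inhibitor), Marco (a scavenger receptor), Fpr2 (a formyl peptide receptor) and Mmp9 (a gelatinase). The 3 lower ones were Il12b, Il6 and Ptx3. Marco read 5.69, 7.82, 8.87 and 9.75 over time in IRAK2 KO, against 5.35, 7.61, 9.27 and 11.01 in wild type. Lcn2, which binds bacterial siderophores, read 3.52, 9.31, 10.40 and 10.15 in IRAK2 KO, against 3.46, 9.57, 10.91 and 11.51 in wild type.

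Interferon-stimulated genes had the highest list median, 0.72 in both genotypes. Of 28 measured, 12 were at least 2-fold higher in IRAK2 KO and 1 was lower, Irf1, an interferon-regulated transcription factor gene that NF-kB also induces. Ifit1, which binds foreign RNA, read 5.71, 5.67, 7.69 and 8.54 over time in IRAK2 KO, against 4.92, 5.32, 7.33 and 7.93 in wild type. Oasl1, of the oligoadenylate synthetase family, read 4.89, 4.03, 5.09 and 6.47 in IRAK2 KO, against 4.32, 4.07, 4.84 and 5.63 in wild type, and rose in the limma fit (adjusted p 0.00565). The RefSeq window of Ifit1 at chr19:34640639-34640938 of GRCm38.p6, plus strand, is shown as an example of the group, with capitals at letters of the interferon response element core GAAANNGAA on either strand; 3 matches, of which the first and second overlap, lie 109, 103 and 84 bases before the start.
Ifit1: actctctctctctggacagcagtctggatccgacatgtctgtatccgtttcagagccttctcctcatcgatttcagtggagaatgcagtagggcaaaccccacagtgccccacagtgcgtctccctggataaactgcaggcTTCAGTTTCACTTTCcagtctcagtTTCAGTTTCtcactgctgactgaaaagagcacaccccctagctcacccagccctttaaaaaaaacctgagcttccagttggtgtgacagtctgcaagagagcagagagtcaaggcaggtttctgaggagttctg
Such a core stood in 18 of 131 windows of genes higher at 8 h without an early change (13.7%) and in 14 of 164 windows of early-repressed genes that were higher (8.54%). It stood in 13 of 161 windows of early-induced genes that were lower (8.07%) and in 27 of 262 of those that were not (10.3%). The share was 7.35% in windows of the genes read here and 8.57% in all windows. In the 131 windows C/EBP stood in 22 (16.8%) and AP-1 in 13 (9.92%), against 9.04% and 6.33% of the genes read here. The TATA box, CRE and kB motifs stood in 6.87%, 1.53% and 1.53%, against 9.87%, 2.68% and 2.66%. Another probeset of Dhx58, 1 of the 12, differed by -0.21 where the chosen probeset differed by 1.12.

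Rgs2 and Bcl2 had the largest increases among the early-repressed genes in IRAK2 KO. Rgs2, which limits G protein signalling, read 10.51, 5.62, 7.50 and 8.15 over time in IRAK2 KO, against 10.48, 4.99, 6.08 and 6.59 in wild type. At 8 h 48.3% of its early loss was left in IRAK2 KO. Bcl2, which protects from cell death, read 6.67, 5.14, 6.70 and 7.74 in IRAK2 KO, against 5.98, 5.14, 7.20 and 7.31 in wild type, and so ended above its start, while its 4 other probesets, all near the floor, differed by 0.05 to 0.97. The chemokine receptor gene Cxcr4 read 11.45, 7.51, 8.44 and 9.37 in IRAK2 KO, against 11.74, 7.17, 7.65 and 7.83 in wild type, and rose in the limma fit in IRAK2 KO (adjusted p 0.0297). C130050O18Rik read 6.30 at 8 h in IRAK2 KO, against 6.07 at 0 h. The other genes with the largest returns were St18, Gpr146, Acot6, Prokr1, Pag1, Tifab and Hhex, higher by 2.05 to 2.48 in IRAK2 KO and by 1.70 to 2.68 in wild type. Of 22 FoxO target and growth-arrest genes 4 were higher, Foxo3, Sesn1, Fbxo32 and Trp53inp1, and 5 were lower, Cdkn1a, Bcl2l11, Gadd45a, Btg2 and Ccng2, with a median of -0.16. In the list of chemoattractant, purine and lipid receptors and RGS genes 5 of 21 were higher and 3 lower.

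Other early losses stayed. Of the 615 early-repressed genes, 162 were within 0.5 log2 of their 2 h level at 8 h, with a median of 79.5% of the early change left. Ccr2, the receptor for CCL2, read 6.30, 4.39, 4.32 and 3.99 over time in IRAK2 KO and 5.85, 4.06, 3.99 and 3.79 in wild type. Pparg, a lipid-sensing nuclear receptor, read 7.48, 5.58, 5.96 and 5.52 in IRAK2 KO and 7.35, 5.67, 6.34 and 5.81 in wild type. Arhgap19, Socs6, Lpin1, Tmem154, Hpgds, Gm14321, Cnr2 and Mxd4 completed the 10 with the deepest early loss, and their 8 h minus 2 h differences were -0.29 to 0.38 in IRAK2 KO.

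Counts in the metabolic and housekeeping lists are to be read beside the 3.03% lower and 3.32% higher of all measured genes. Of 17 oxidative stress genes 4 were higher, Hmox1 (haem oxygenase), Gclm and Gclc (glutathione synthesis) and Nqo1 (a quinone reductase), and 1 was lower, the metallothionein gene Mt2. Hmox1 read 9.86, 9.26, 10.36 and 11.07 over time in IRAK2 KO, against 9.71, 8.98, 9.93 and 10.64 in wild type, and rose in the limma fit (adjusted p 0.0164). Cholesterol synthesis had a median of 0.05, with 2 of 19 higher and 0 lower. Of these 19, 17 had their highest stimulated level at 4 h in IRAK2 KO. So did 16 of 17 ribosomal protein genes, 12 of 19 chemokine genes and 28.3% of all measured genes. Fdft1, squalene synthase, read 8.98, 9.28, 10.07 and 9.36 in IRAK2 KO. Of 17 ribosomal protein genes 0 were 2-fold apart (median 0.04). The unfolded protein response gave 1 of 25 lower and 0 higher, antigen presentation 2 and 2 of 16, the cell cycle 1 and 1 of 25, the TLR pathway 2 and 1 of 27, lysosome and phagocytosis 1 and 1 of 26, eicosanoid and arginine metabolism 2 and 1 of 17, LXR and PPAR targets 0 and 1 of 20, and glycolysis 1 and 1 of 21. The medians of these 8 lists lay between -0.27 and 0.10.

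To locate where the IRAK2 KO time course departed from wild type, the wild-type difference was subtracted from the IRAK2 KO difference. By at least 1 log2, 132 of 11816 genes had moved lower in IRAK2 KO (1.12%) and 45 had moved higher (0.381%). In the 132 the median difference was -0.64 in IRAK2 KO and 0.67 in wild type, and 50 were at least 2-fold lower in IRAK2 KO while 45 were at least 2-fold higher in wild type. The largest was Il6 at -4.65, then Il1b (-3.72), Ptgs2 (-3.12), Cxcl1 (-3.08), Il12a (-2.90), Zfp811 (-2.82) and Ccl4 (-2.80). Slco3a1, a transporter of the organic anion family, read 4.88, 6.02, 8.27 and 6.77 over time in IRAK2 KO, against 4.64, 5.61, 9.33 and 8.98 in wild type, with the wider gap at 8 h. Wfdc21 read 3.56, 4.06, 5.51 and 5.77 in IRAK2 KO, against 3.35, 4.13, 6.56 and 8.20 in wild type.

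Of the 45 genes that moved higher, 23 were at least 2-fold lower at 8 h in wild type and 14 were at least 2-fold higher in IRAK2 KO. Bex1, a small adaptor protein, had the largest move at 1.95 and read 9.94, 9.14, 7.50 and 6.95 over time in IRAK2 KO, against 10.08, 8.93, 6.67 and 4.79 in wild type. Gcnt1, a glycan-branching enzyme, read 9.95, 8.17, 7.70 and 8.44 in IRAK2 KO, against 9.79, 8.09, 7.12 and 6.79 in wild type. Ednrb, the endothelin B receptor, read 8.54, 9.23, 9.15 and 9.72 in IRAK2 KO, against 8.35, 9.29, 8.44 and 8.25 in wild type. Elavl4, Mgst2, Zfp93, B230216N24Rik, Tchh, Frmd4b and Dck followed with moves of 1.31 to 1.87. Zfp93 reached the floor by little and moved to 0.02 for its 8 h minus 2 h difference when probesets with the suffixes _x_at and _s_at were left out.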

How the data were processed

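RNA from 12 macrophage preparations was labelled with the NuGEN Ovation biotin system and hybridised to Affymetrix arrays, per the labels' protocols. The authors deposited log2 values for 45101 probesets, made with RMA per the submitters' processing notes, which name no version. RMA's quantile step brings the arrays to a like distribution (medians here 3.81 to 4.08), so a shift of all transcripts would not be seen.

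Of the probesets, 34958 carry 1 gene symbol, 932 several and 9211 none, and 34754 symbols were updated by gene identifier (GRCm38.p6 gene table). Each gene was read from the probeset with the highest mean over 11 arrays, IRAK1/IRAK2 KO 0 h left out because it stands apart (mean correlation with the others 0.80, against 0.97 to 0.98). Lists, members and thresholds were chosen with earlier results of these data known. Named genes are the 2 kinases, the 15 largest differences each way among genes with 4 h between 2 h and 8 h, the 10 leading kept, recovered, unrecovered and moved genes, list extremes and leading slope calls; other list members were named after their values were seen. Slopes were fitted with limma 3.58.1 (lmFit, eBayes, Benjamini-Hochberg adjustment, prior 4.3 degrees of freedom) and tested on simulated data, as were the counts. Motifs were also counted for AP-1 (TGANTCA), CRE (TGACGTCA), the TATA box (TATAAA) and C/EBP (TTGCNNAA). Matches stood in 8.70%, 0.621%, 8.07% and 8.07% of windows of early-induced genes that were lower. The shares were 6.33%, 2.68%, 9.87% and 9.04% for all genes read here, and 7.93%, 1.88%, 14.2% and 10.8% for all windows.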

Additional observations from a re-analysis of the deposited data

Results flagged for a closer look

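Il6 stood out because its course differed between IRAK2 KO and wild type by a test of the difference itself. The slope on log2 time was lower in IRAK2 KO by -2.33 log2 per doubling of time (limma, SE 0.17, adjusted p 0.0198), with the level lower at each later time in IRAK2 KO and higher at each later time in wild type. The adjusted p was 0.00965 to 0.156 over the 7 other fits. The IRAK2 KO level at 8 h, 3.75, lay under the floor.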

How the results depend on the processing

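With the fold threshold at 1.5 in place of 2, the counts were 920 lower and 1252 higher genes, 525 early-induced genes lower, 743 early-repressed genes higher, and 667 and 436 genes moved lower and higher against wild type. With the mean of all probesets of a gene, the counts were 211 higher genes, 85 early-repressed genes higher, and 83 and 15 genes moved lower and higher; the cause was not tested. No floor, a floor raised by 1 log2, probesets chosen over all 12 arrays, probesets with the suffixes _x_at and _s_at left out, and arrays centred on their medians left these 6 counts within 1.5 times. Slope calls in IRAK2 KO numbered 173 to 325 over 6 other fits, against 236. The 1 slope difference, Il6, was called in 6 of 7 other fits, and without the 3 IRAK1/IRAK2 KO arrays, which leaves 2 residual degrees of freedom, 0 genes were called, with 410 at an unadjusted p under 0.05. No named gene at least 2-fold apart changed sign with arrays centred, with the suffixed probesets left out or by the mean of all probesets. With the suffixed probesets left out, 4 of 113 named genes shifted by 0.5 log2 or more and were no longer 2-fold apart: Adm (-0.67), Bub1b (0.30), Ndrg1 (-0.92) and Zfp93 (0.02). By the mean of all probesets 29 of 113 named genes shifted by 0.5 log2 or more, Nr4a3 to -1.24, Adm to -1.77 and Bcl2 to 0.90 among them. No list median shifted by 0.5 log2 with arrays centred, by the mean of probesets or without a floor; those of eicosanoid genes (-0.11 without a floor) and cholesterol synthesis (-0.03 by the mean of probesets) changed sign. No paired analysis was possible because each group is 1 array and the labels carry no replicate numbers that mark shared animals or days. The number of arrays limits the precision, and no detection call was used to tell low levels from background.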
